A study of Mus musculus with 10 samples.

Results

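Secreted WNT antagonists were followed in RNA from 10 mouse forelimb buds, 5 of controls and 5 in which Cxxc1 had been deleted conditionally. The group was given as 9 named genes, Sfrp1, Sfrp2, Frzb, Sfrp5, Wif1, Notum, Dkk1, Dkk2 and Dkk3, and all 9 were found by symbol among the 47729 genes of the deposited count table. WNT proteins are lipid-modified secreted signals that bind Frizzled receptors together with LRP5 or LRP6 and stabilise beta-catenin or act through other routes. The antagonists work outside the cell at different steps. Proteins of the SFRP family (Sfrp1, Sfrp2, Sfrp5 and Frzb) and WIF1 bind WNT proteins themselves, NOTUM is an enzyme that removes the lipid that WNT needs, and DKK1 and DKK2 bind LRP5 and LRP6. In the limb bud, WNT signals from the ectoderm keep the mesenchyme beneath it from forming cartilage and help to maintain the apical ridge, so the level of antagonists bears on where cartilage can form.

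Embryos were staged E11.5 to E12, with 49 to 51 somites in both groups, and came from 4 litters. All 5 knockouts were labelled Prx1Cre_+-Cxxc1fl_fl, which is Prx1Cre with floxed Cxxc1 on both alleles, and Prx1Cre is active in limb bud mesenchyme, so ectoderm, blood, vessels and migrating muscle precursors of the bud lie largely outside its reach. Control 1 was Prx1Cre_+-Cxxc1fl_wt, controls 2 and 4 were CreWT-Cxxc1fl_WT, control 3 was CreWT-Cxxc1fl_fl, and control 5 was Prx1Cre?-Cxxc1fl_fl, with its Cre status marked by a question mark. Every control thus carried at least 1 floxed allele of Cxxc1. Litter A gave controls 1 and 2 and knockouts 1 and 2, and litters B, C and D gave 1 control and 1 knockout each (numbers 3, 4 and 5). CXXC1 binds unmethylated CpG and is part of the SET1 complexes that methylate histone H3 at lysine 4, and the series title asks about BMP signaling and progenitor differentiation.

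Libraries held 33274911 to 49880815 counts. Cxxc1 itself was at 89.5 to 106 CPM (counts per 1000000, scaled by TMM) in controls and 73.1 to 76.2 CPM in knockouts, a change of -0.36 on the log2 scale (SE 0.05, adjusted p = 0.000144 by edgeR), and the count does not resolve the deleted part of the gene. Tbx5, which marks the forelimb, was at 160 to 206 CPM in controls and 75.9 to 103 CPM in knockouts. Of 20562 genes tested, 35.2% passed an adjusted p of 0.05, 3719 higher and 3526 lower in the knockout. Scaled by library size only, the share higher among the called genes was 62.2%, against 51.3% with TMM. Without litter A, 2002 genes were called higher and 2021 lower. In whole buds, fewer cells of a type and less RNA per cell cannot be told apart.

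The sequences around the gene starts of the antagonists differ in how many CG dinucleotides they hold. CXXC1 binds this pair of bases when it is unmethylated. RefSeq windows of 250 bases before to 50 bases after the gene start (GRCm38.p6) were matched for 6 members, and Sfrp1, Dkk3 and Notum had none in the table. Most of the 250 bases before the RefSeq start of Frzb and Dkk1 lie within the gene by its GENCODE start, so neither is shown. Shown are the bases upstream of both starts for 3 of the members that fell in the knockout, Sfrp2, Dkk2 and Wif1. Also shown are those of Sfrp5, which was near silent in both groups. They are written 5′ to 3′ on the strand of the gene, with CG in capitals. They cover chr3:83766071-83766320 (plus strand) for Sfrp2, chr3:132085042-132085291 (plus) for Dkk2, chr10:121033754-121033959 (plus) for Wif1 and chr19:42202253-42202502 (minus) for Sfrp5.
Sfrp2: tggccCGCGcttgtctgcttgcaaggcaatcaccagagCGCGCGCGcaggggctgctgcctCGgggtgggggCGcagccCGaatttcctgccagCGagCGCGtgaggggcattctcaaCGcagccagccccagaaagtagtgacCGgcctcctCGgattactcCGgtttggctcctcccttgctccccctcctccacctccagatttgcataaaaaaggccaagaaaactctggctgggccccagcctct
Dkk2: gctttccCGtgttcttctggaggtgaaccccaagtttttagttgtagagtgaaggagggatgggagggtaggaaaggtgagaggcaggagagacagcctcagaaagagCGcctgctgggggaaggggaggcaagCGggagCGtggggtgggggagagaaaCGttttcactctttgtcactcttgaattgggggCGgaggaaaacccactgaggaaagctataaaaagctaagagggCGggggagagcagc
Wif1: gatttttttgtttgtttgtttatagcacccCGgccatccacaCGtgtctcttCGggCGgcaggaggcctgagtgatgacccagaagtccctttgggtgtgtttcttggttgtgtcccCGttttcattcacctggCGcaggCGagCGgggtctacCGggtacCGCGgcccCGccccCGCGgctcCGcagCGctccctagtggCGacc
Sfrp5: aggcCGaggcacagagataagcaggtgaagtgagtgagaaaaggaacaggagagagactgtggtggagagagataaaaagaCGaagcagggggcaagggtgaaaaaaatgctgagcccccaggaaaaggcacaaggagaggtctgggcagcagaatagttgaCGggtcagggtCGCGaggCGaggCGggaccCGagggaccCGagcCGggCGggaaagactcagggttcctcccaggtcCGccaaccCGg
The printed stretch holds 16 CG in Sfrp2, 7 in the 250 bases of Dkk2, 17 in the 206 bases of Wif1 and 13 in Sfrp5. Over the full windows of 300 bases, Wif1 had 25 CG, Sfrp2 22, Frzb 20, Sfrp5 15, Dkk2 11 and Dkk1 9. The median of all 32851 windows was 7, and 18.4% of them held as many as Wif1 and 45.8% as many as Dkk1. The members that fell included both CG-rich windows (Wif1, Sfrp2) and a window nearer the median (Dkk2). Frzb, which did not pass the test, had nearly as many CG as Sfrp2. The windows of Frzb and Dkk1 lie mostly within the GENCODE gene, so their counts are not of upstream sequence alone. Sfrp1, which fell, and Notum, which rose, had no window to count. Whether CG content bears on the changes was not tested. The letters CTTTGAT on either strand, a form of the TCF/LEF motif, were in none of the 6 windows and in 3.73% of all windows. TATAAA on the strand of the gene was in the windows of Dkk1 and Dkk2 and in 8.32% of all windows.

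Of the 9 antagonists, 4 fell in the knockout (Sfrp1, Sfrp2, Wif1 and Dkk2), Notum rose, and Frzb, Dkk1 and Dkk3 did not pass the test. Sfrp5 was too low to be tested. All 4 that fell were at 0.271 to 0.458 of the control mean in the knockout. At an adjusted p of 0.05, 17.1% of all tested genes fell, 18.1% rose, and 2.24% fell by at least 2-fold, against 4 members that fell by at least 2-fold among the 8 tested. The groups did not overlap in 5 of the 8 tested members, where 25.3% of all tested genes had groups apart. The median log2 fold change of the 8 members was -0.71 and that of all tested genes -0.001. The members were chosen with earlier results of these data known, so these shares are no test of the group.

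**Figure D1:**
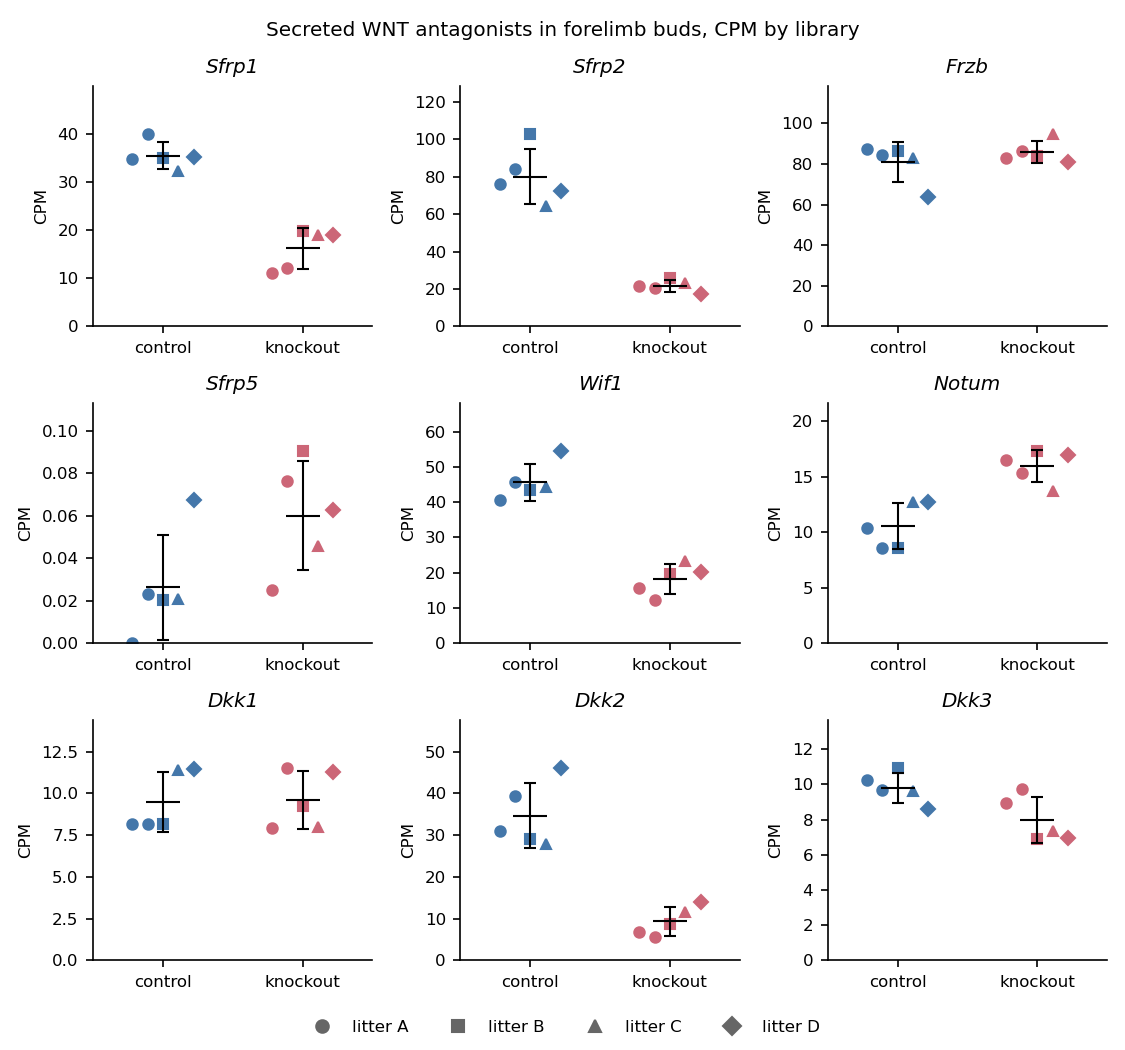
CPM (y axis, linear, from 0) of each antagonist in the 5 control and 5 knockout libraries, with the litter as the symbol and the mean and SD as the black bar. In Sfrp1, Sfrp2, Wif1 and Dkk2 every knockout lies below every control, in Notum every knockout lies above every control, and Sfrp5 stays below 0.1 CPM throughout.

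Among the proteins that bind WNT, Sfrp2 showed the clearest fall. Sfrp2 (ENSMUSG00000027996, chromosome 3, 83766321 to 83774316, plus strand, GRCm38) was at 75.9, 84.3, 103, 64.3 and 72.6 CPM in controls 1 to 5 and at 21.8, 20.6, 25.9, 23.2 and 17.3 CPM in knockouts 1 to 5. The lowest control was thus more than 2-fold above the highest knockout. Means were 80.0 ± 14.6 and 21.8 ± 3.19 CPM (SD, n = 5 each). The change on the log2 scale was -1.88 (SE 0.13), with an edgeR adjusted p of 7.8e-07. A transcript on the opposite strand, Gm26771, shares 16.1% of the exon bases of Sfrp2, and it was at 0.327 to 0.531 CPM on average in the groups, far below Sfrp2.

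Sfrp1 (chromosome 8, 23411502 to 23449632, plus strand), which binds WNT through a domain like that of Frizzled receptors, was at 34.9, 40.0, 34.9, 32.3 and 35.2 CPM in controls and 11.2, 12.0, 19.9, 19.1 and 18.9 CPM in knockouts. The controls lay close together, while the knockouts fell into the lower values of litter A (knockouts 1 and 2) and the higher values of the other litters. The coefficient of variation was 7.85% in controls and 26.1% in knockouts. Means were 35.5 ± 2.79 and 16.2 ± 4.24 CPM (SD, n = 5 each). The change on the log2 scale was -1.13 (SE 0.16), with an edgeR adjusted p of 0.000153.

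Wif1 (chromosome 10, 121033960 to 121100650, plus strand), which binds WNT through a domain of its own, was at 40.6, 45.6, 43.4, 44.3 and 54.5 CPM in controls. In knockouts it was at 15.7, 12.4, 19.7, 23.4 and 20.1 CPM. Here too the lowest values were those of the knockouts of litter A. Means were 45.7 ± 5.24 and 18.3 ± 4.26 CPM (SD, n = 5 each). The change on the log2 scale was -1.32 (SE 0.15), with an edgeR adjusted p of 3.2e-05.

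Frzb (chromosome 2, 80411970 to 80447625, minus strand), an SFRP first known from cartilage, was at 87.2, 84.2, 86.5, 82.9 and 63.9 CPM in controls and 83.0, 86.4, 83.9, 94.8 and 80.9 CPM in knockouts. The groups overlapped, and control 5 lay below the other 9 libraries. Knockout and control differed by 0.08 on the log2 scale (SE 0.08, adjusted p = 0.464 by edgeR). The 95% interval ran from -0.09 to 0.26, which leaves room for a fall to 0.939 of the control level or a rise to 1.20 of it. In the same libraries 7 of 8 cartilage markers fell, against 17.1% of all tested genes, and a tie of these markers to Frzb was not tested. Sox9, which starts cartilage formation, was at 80.5 to 157 CPM in controls and 14.9 to 24.2 CPM in knockouts, and the cartilage collagen Col2a1 was at 299 to 488 and 75.6 to 105 CPM.

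Sfrp5 (chromosome 19, 42197971 to 42202252, minus strand) had 0, 1, 1, 1 and 3 counts in controls and 1, 4, 3, 2 and 3 counts in knockouts. Its level was at most 0.0905 CPM. A library with 0 counts allows up to 0.0653 CPM in control 1, at 3 counts. The sums were 6 counts in controls and 13 in knockouts. In the fit without the filter on low counts the log2 fold change was 1.11 (SE 0.71, edgeR adjusted p = 0.345).

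Notum was the antagonist that rose. Notum (chromosome 11, 120653788 to 120661175, minus strand), the WNT lipid esterase and itself a feedback target of WNT signaling, was at 10.4, 8.57, 8.60, 12.7 and 12.7 CPM in controls and at 16.4, 15.3, 17.3, 13.7 and 17.0 CPM in knockouts. The groups were apart by a narrow gap, between controls 4 and 5 and knockout 4. Means were 10.6 ± 2.05 and 15.9 ± 1.47 CPM (SD, n = 5 each). The change on the log2 scale was 0.59 (SE 0.13), with an edgeR adjusted p of 0.00299. Without litter A the call was lost (0.50, adjusted p = 0.0769). Transcripts on the opposite strand share 38.1% of the exon bases of Notum, and 1 of them, Notumos, also rose, from 1.60 ± 0.18 to 2.73 ± 0.56 CPM (SD, n = 5 each, log2 fold change 0.76, SE 0.16, edgeR adjusted p = 0.00298), so that counts without strand could not separate them.

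Of the DKK genes, Dkk2 fell, and Dkk1 and Dkk3 did not pass the test. Dkk2 (chromosome 3, 132085292 to 132180304, plus strand), whose protein binds LRP5 and LRP6, was at 31.0, 39.3, 29.1, 27.9 and 46.1 CPM in controls and 6.75, 5.67, 8.81, 11.6 and 14.0 CPM in knockouts. Knockouts 1 and 2 of litter A were the lowest, and knockout 5 and control 5, both of litter D, the highest of their groups. Means were 34.6 ± 7.78 and 9.37 ± 3.45 CPM (SD, n = 5 each). The change on the log2 scale was -1.88 (SE 0.23), with an edgeR adjusted p of 7.3e-05.

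Dkk1 (chromosome 19, 30545863 to 30549665, minus strand), the LRP inhibitor that mouse head and limb patterning need, was at 8.17, 8.15, 8.15, 11.4 and 11.4 CPM in controls and 7.95, 11.51, 9.23, 8.01 and 11.3 CPM in knockouts. Both groups spanned nearly the same range. Knockout and control differed by 0.02 on the log2 scale (SE 0.15, adjusted p = 0.926 by edgeR), and the 95% interval of -0.30 to 0.35 corresponds to 0.811-fold to 1.27-fold. Dkk3 (chromosome 7, 112116017 to 112159057, minus strand), a more distant member of the family, was at 10.2, 9.70, 10.9, 9.60 and 8.59 CPM in controls and 8.95, 9.75, 6.91, 7.35 and 6.94 CPM in knockouts. The knockouts of litter A lay within the control range and the other 3 below it. Dkk3 differed by -0.30 on the log2 scale (SE 0.12, adjusted p = 0.0643 by edgeR). It passed in 7 of 23 alternatives and missed the threshold in 16, such as scaling by library size only (-0.24, edgeR adjusted p = 0.167) and without the libraries high in Xist (-0.23, adjusted p = 0.214). It passed with litter as a block (-0.31, edgeR adjusted p = 0.0439), with DESeq2 (-0.29, adjusted p = 0.0412), without control 5 (-0.34, adjusted p = 0.0435), without knockout 2 (-0.38, adjusted p = 0.0205) and in the second table at both pseudocounts. Without litter A it passed (-0.46, edgeR adjusted p = 0.0399), but not when the block by litter was added to that fit (-0.45, adjusted p = 0.0606).

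**Figure D2:**
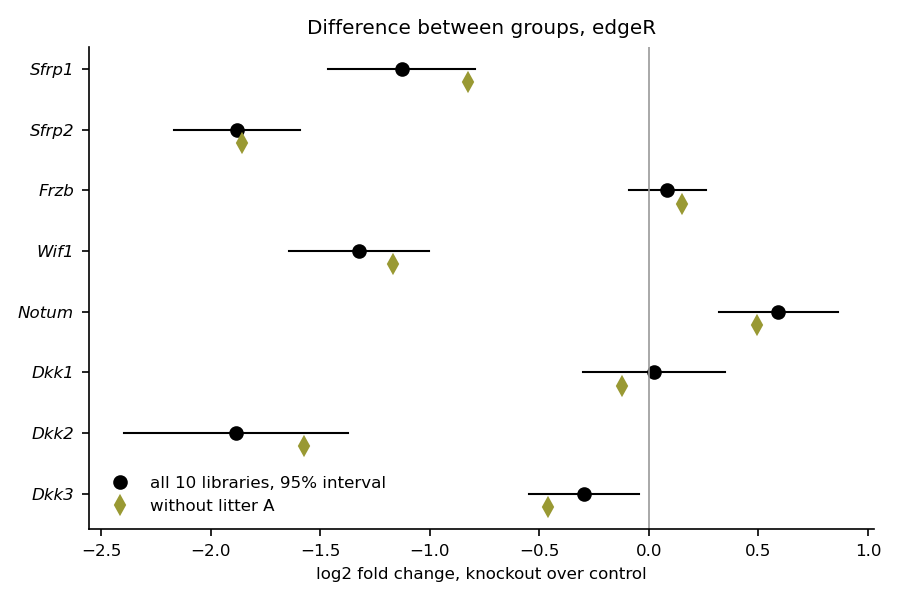
Log2 fold change of knockout over control (x axis) for the 8 antagonists tested, as black points with 95% intervals from edgeR, and the value without litter A as diamonds. The intervals of Sfrp1, Sfrp2, Wif1 and Dkk2 lie wholly below 0, that of Notum above 0, and those of Frzb and Dkk1 span 0, while that of Dkk3 lies just below 0 although its adjusted p is 0.0643.

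An exact permutation test of log2 CPM, two-sided, gave p = 0.00794 for Sfrp1, Sfrp2, Wif1, Dkk2 and Notum, the smallest that 5 against 5 allows. Groups that do not overlap always give this p, so it restates that the groups of these members were apart. Of all tested genes, 25.3% had groups apart. It was 0.0556 for Dkk3, 0.476 for Frzb and 0.984 for Dkk1 by the same exact permutation test. Libraries were exchanged without regard to litter in this test. Its p-values set each difference against the spread between embryos of these litters.

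Litters were compared because they are the batch that the labels give. The 4 antagonists that fell were lower in the knockout in 4 of 4 litters. Sfrp2 differed by -1.92 in litter A and by -1.99, -1.47 and -2.07 in litters B, C and D (log2 CPM, knockout minus control). Sfrp1 differed by -1.68 in litter A but by -0.81, -0.76 and -0.90 in the others, nearly the same size in each of these. Dkk2 differed by -2.49, -1.72, -1.26 and -1.72 and Wif1 by -1.62, -1.14, -0.92 and -1.44 in litters A to D. The difference of Sfrp1 in litter A minus that in litters B to D was -0.86 in an interaction fit chosen after the values were seen, with an unadjusted p of 3.0e-05 but an edgeR adjusted p of 0.156. In that fit 0 of 20562 genes passed the adjusted threshold and 1748 had an unadjusted p under 0.05. The interaction was -0.93 for Dkk2 (edgeR adjusted p = 0.549), -0.45 for Wif1 (0.566) and -0.06 for Sfrp2 (0.968). Notum was higher in 4 of 4 litters, by 0.75, 1.01, 0.11 and 0.42, least in litter C. Dkk3 was lower in 4 of 4 litters, from -0.66 in litter B to -0.09 in litter A, and Frzb and Dkk1 were each higher in 2 litters and lower in 2.

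**Figure D3:**
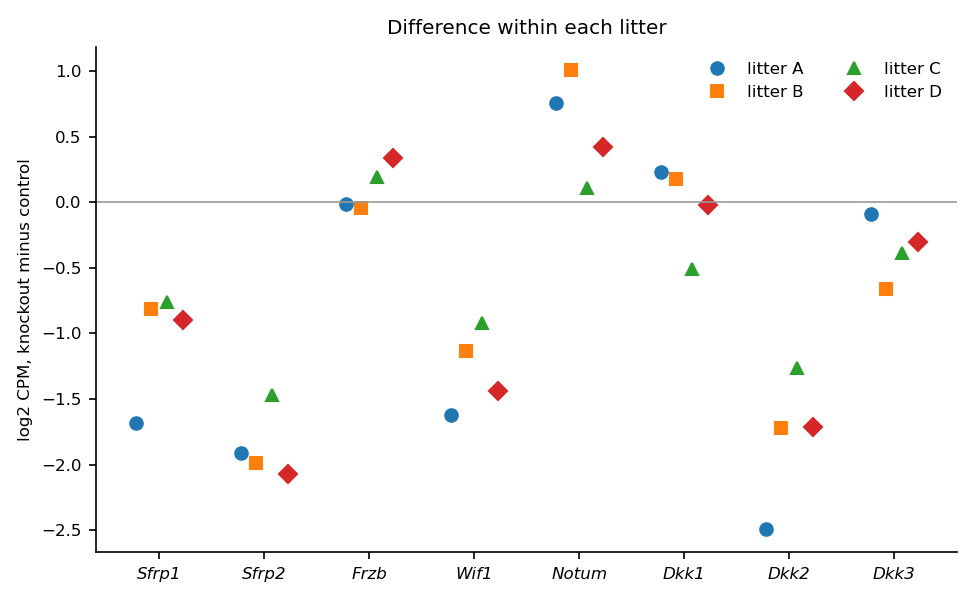
Knockout minus control of log2 CPM (y axis) within each of the 4 litters for the 8 antagonists tested (litter A is the mean of 2 embryos per group, the others 1 each). Sfrp1 stands at -1.68 in litter A and from -0.90 to -0.76 in the other litters, whereas Sfrp2 lies between -2.07 and -1.47 in all 4.

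Levels per length, in TPM (counts divided by the exon length of the gene and scaled to a common total), allowed the antagonists to be ordered. In controls Sfrp2 came first with 97.7 ± 20.9 TPM, followed by Frzb with 65.6 ± 8.82, Wif1 with 49.2 ± 5.25, Dkk2 with 24.4 ± 5.11 and Sfrp1 with 21.2 ± 1.55 TPM (SD, n = 5). Notum (11.48 ± 2.09 TPM), Dkk1 (10.2 ± 1.79) and Dkk3 (7.66 ± 0.90) followed, and Sfrp5 was last at 0.0361 ± 0.0337 TPM. The library ranges overlapped between Frzb and Wif1, between Dkk2 and Sfrp1, between Notum and Dkk1, and between Dkk1 and Dkk3. They were apart between Sfrp2 and Frzb, Wif1 and Dkk2, Sfrp1 and Notum, and Dkk3 and Sfrp5. The order was the same with the longest transcript as the length.

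In knockouts Frzb came first with 71.6 ± 4.73 TPM and Sfrp2 second with 27.3 ± 3.86, followed by Wif1 with 20.2 ± 4.15 and Notum with 17.9 ± 1.69 TPM (SD, n = 5). Dkk2 moved from place 4 in controls to place 7 in knockouts, at 6.77 ± 2.31 TPM. The sum of the 9 antagonists was 261 to 327 TPM in controls and 166 to 180 TPM in knockouts, without overlap. Without Frzb the sum was 195 to 253 TPM and 92.9 to 106 TPM. Of the summed level, Sfrp2 made up 33.7% ± 4.20 in controls and 15.95% ± 2.06 in knockouts, and Frzb 22.9% ± 2.95 and 41.9% ± 2.41 (SD, n = 5 each). Notum made up 4.05% ± 0.98 and 10.5% ± 1.26. The antagonist RNA of the knockout buds was thus lower in sum and led by Frzb in place of Sfrp2.

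**Figure D4:**
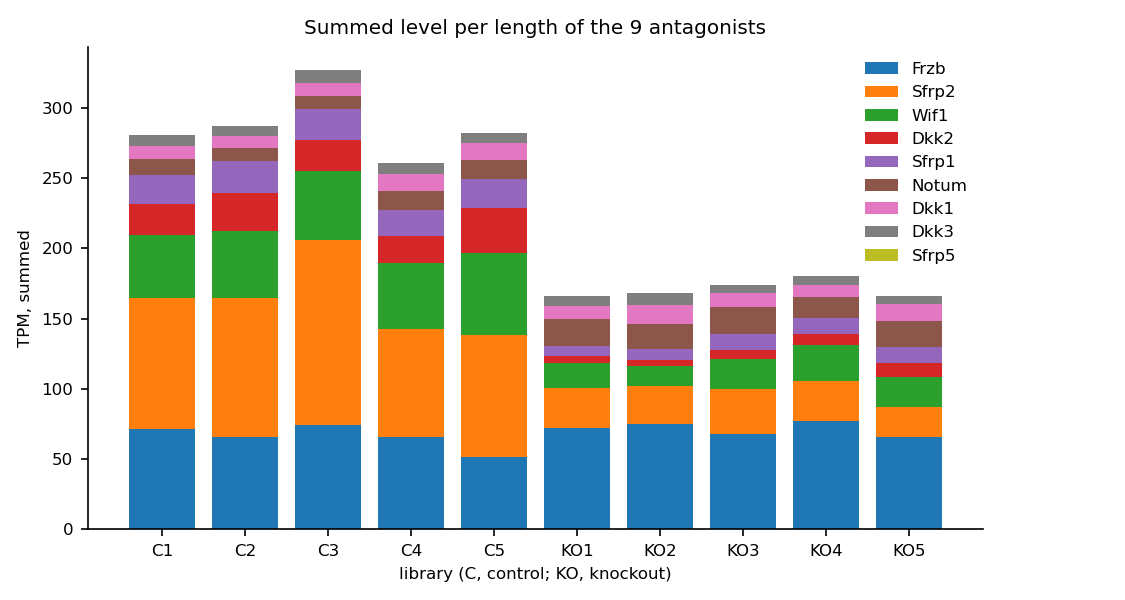
Stacked level per length (y axis, TPM, from 0) of the 9 antagonists in each of the 10 libraries (C1 to C5, controls, and KO1 to KO5, knockouts). The stacks reach 261 to 327 TPM in controls and 166 to 180 TPM in knockouts, with Frzb (bottom) at 51.1 to 73.8 TPM in controls and 65.7 to 77.1 TPM in knockouts.

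Other genes of the WNT pathway were called in both directions in 5 of the 6 lists, beside 18.1% of all tested genes called higher and 17.1% called lower. The lists were not compared with each other. Of 17 ligands tested, 5 fell, 4 rose and 8 did not pass. Wnt11 fell from 35.4 ± 4.14 to 5.93 ± 2.03 CPM and Wnt5a, the main non-canonical ligand of limb mesenchyme, from 377 ± 48.6 to 226 ± 40.1 CPM (SD, n = 5 each). Wnt5b fell by 0.37 and Wnt9a by 0.52 on the log2 scale. Wnt8a, at 0 to 0.250 CPM in controls, rose to between 2.67 and 3.80 CPM, and Wnt9b (0.58), Wnt6 (0.49) and Wnt3 (0.43) rose on the log2 scale.

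Of 20 genes for receptors and WNT secretion, 6 rose, 9 fell and 5 did not pass. The Frizzled genes Fzd9 (-1.56), Fzd4 (-0.67) and Fzd1 (-0.49) fell, as did Porcn (-0.80), which adds the lipid that NOTUM removes. Fzd6 (0.66), Fzd10 (0.64), Ptk7 (0.52) and Wls (0.27), the carrier of WNT in secreting cells, rose. Of the partners of the DKK proteins, Lrp6 fell from 162 ± 10.2 to 136 ± 8.22 CPM, Lrp5 was at 96.5 ± 8.82 and 101 ± 3.86 CPM, Kremen1 at 64.9 ± 7.11 and 74.4 ± 5.82 CPM, and Kremen2 rose from 16.9 ± 2.79 to 22.3 ± 2.62 CPM (SD, n = 5 each). Adjusted p-values by edgeR were 0.00312 for Lrp6, 0.409 for Lrp5, 0.0704 for Kremen1 and 0.0176 for Kremen2.

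Of 9 genes of the R-spondin axis, which raises the number of WNT receptors at the cell surface, 4 rose, 3 fell and 2 did not pass. The ligand Rspo3 fell from 24.2 ± 2.64 to 6.52 ± 0.93 CPM, while Rspo2 rose from 6.68 ± 1.27 to 12.0 ± 1.26 CPM (SD, n = 5 each). The receptor Lgr6 rose by 2.39 and Lgr5 fell by 0.63 on the log2 scale, and Znrf3, a ligase that removes Frizzled from the surface, rose by 0.43. Of 16 intracellular components, 7 fell, 0 rose and 9 did not pass. Pygo1 (-0.64), Bcl9 (-0.36), Dvl1 (-0.24) and Dvl2 (-0.25) were among those that fell. PYGO1 and BCL9 act with beta-catenin in the nucleus, and the DVL proteins relay the signal from Frizzled.

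Of 10 target and feedback genes, 4 rose, 1 fell and 5 did not pass. Sp5 rose from 0.977 ± 0.183 to 5.10 ± 0.84 CPM, and Myc (1.10), Tcf7 (0.54) and the membrane inhibitor Apcdd1 (0.45) rose as well, whereas Nkd2 fell by 0.36 on the log2 scale. Axin2, the most widely used WNT readout, was at 106 ± 13.0 and 99.8 ± 7.66 CPM and Lef1 at 63.2 ± 11.0 and 74.5 ± 10.9 CPM (SD, n = 5 each, edgeR adjusted p = 0.432 and 0.160). Of 6 other secreted inhibitors tested, Igfbp4 (-0.62) and Draxin (-0.43) fell, Dkkl1 rose (1.15), and the other 3 did not pass. Sfrp4, Dkk4 and Cer1 were below the filter.

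**Figure D5:**
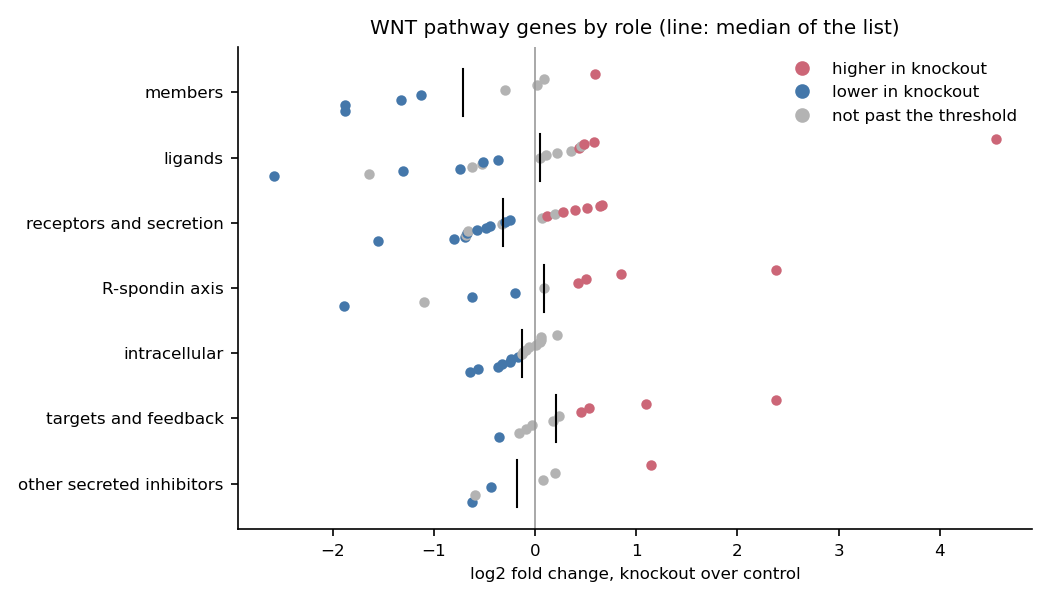
Log2 fold change of knockout over control (x axis) for the antagonists and the 6 lists of other WNT genes, 1 point per gene tested, coloured by the call at an edgeR adjusted p of 0.05, with the median of each list as a line. The members hold 4 points at or below -1.13 and 1 called higher, and called genes lie on both sides of 0 in the other lists, except the intracellular genes, with 7 called lower and 0 called higher.

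RNA of cell type markers of the bud differed between the groups as well. Of 8 markers of limb mesenchyme 6 fell and 0 rose, with a summed level of 1905 to 1967 CPM in controls and 987 to 1053 CPM in knockouts. Their log2 fold changes ran from -1.87 (Pdgfra) to -0.16 (Twist1), with a median of -0.77. Of 5 joint interzone markers 4 fell (summed 120 to 156 and 40.0 to 54.4 CPM), and of 8 cartilage markers 7 fell (551 to 1011 and 174 to 211 CPM). In the lists of 5 other cell types, the markers that passed the test rose. Of all tested genes, 18.1% were called higher and 17.1% lower. Ectoderm and ridge markers rose in 7 of 10 (319 to 527 and 583 to 694 CPM). Macrophage markers rose in 10 of 10 (56.0 to 69.9 and 207 to 247 CPM), endothelial markers in 6 of 7 and erythroid markers in 6 of 7. Muscle precursor markers rose in 4 of 6, and their summed levels overlapped (60.5 to 80.3 and 60.9 to 134 CPM). Of 7 Schwann cell and melanoblast markers 1 rose and 2 fell. None of these markers was at 0 in every library. Their part in the differences of the antagonists was not tested.

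Genes with the profile most like each called antagonist were sought among 13341 genes with a mean of at least 1 CPM, by Pearson r of log2 CPM over the 10 libraries, which share 4 litters. For Dkk2 they were Ednra (r = 0.991), Tnc (0.989) and Pbx2 (0.988), and for Wif1 they included Pbx2 (0.991) and Col3a1 (0.990). For Sfrp1 they were Capn6 (0.989), Pcdh10 (0.989) and Rnf150 (0.982), for Sfrp2 Klhl22 (0.993), Mxra8 (0.992) and Vps37d (0.991), and for Notum Mrps35 (0.978), Gmfg (0.975) and Slc38a4 (0.974). With the 2 group means removed, r of these genes was between 0.833 (Vps37d with Sfrp2) and 0.967 (Mrps35 with Notum). The genes were picked by r over the same 10 libraries, so these values are no separate evidence of likeness. Pbx2 appeared for both Dkk2 and Wif1. Among the antagonists, the deviations from the group means of Dkk2, Sfrp1 and Wif1 went together (r = 0.77 for Dkk2 with Sfrp1, 0.86 for Dkk2 with Wif1 and 0.77 for Sfrp1 with Wif1, 10 libraries), and those of Dkk3 went the other way (r = -0.85, -0.80 and -0.89). Sfrp2 followed none of the 3 (r = -0.20 with Dkk2, 0.18 with Sfrp1 and 0.03 with Wif1). These values describe the 10 libraries, and litter A contributes 4 of them.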

How the data were processed

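RNA of 10 forelimb buds was sequenced. The authors deposited estimated counts per Ensembl gene, and the submitters' processing notes list mm10, Salmon 0.8.2, DESeq2 1.16.1 and R 3.4.1, with no role given. No source used here says whether reads were assigned by strand. Rounding to integers came first, since 0.06% of the values above 0 were whole (within 1e-06). A second deposited table, named FPKM, held a signal that was each rounded count over a single factor of its library (100.00% of values above 0 within 0.01 of a count), and served as an alternative on a log2 scale. Symbols, loci and lengths came from GENCODE M21 (GRCm38), in which 47310 of 47729 IDs had a symbol.

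The quasi-likelihood test of edgeR 4.0.16 (R 4.3.3) compared the 5 knockouts with the 5 controls, without covariates. TMM gave the scaling, and filterByExpr (at least 10 counts, total 15) left 20562 genes, over which p-values were adjusted (Benjamini-Hochberg, threshold 0.05). SE was derived from the F statistic, and 95% intervals use it. Alternatives used limma 3.58.1 and DESeq2 1.42.0, other scalings, replicate blocks, a somite term and fewer libraries. Controls and knockouts of the same number share a litter per the labels, and the correlations of their deviations from the group means were -0.01, 0.16, -0.02, 0.04 and 0.20. A count of 0 allows 0.060 to 0.090 CPM, at 3 counts, and this covers counting error only. Tested on simulated data of this comparison (20305 genes), 89.8% of genes with a 2-fold change were called. The simulation gave every gene the same biological coefficient of variation, 16.4%, so this share does not apply to genes of wider spread or smaller change. Named were all members, Cxxc1, up to 4 genes per direction and WNT list by adjusted p, 6 WNT genes whatever their test, leading markers, and the 3 most alike genes per called member, of which 1 is not reported here. Members and lists were chosen with earlier results of these data known.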

Additional observations from a re-analysis of the deposited data

Results flagged for a closer look

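Frzb in control 5, whose Cre status is marked by a question mark, was at 63.9 CPM, far below the other 4 controls (82.9 to 87.2 CPM). Among 16 groups of 5 libraries checked (8 antagonists in 2 groups) this was the 1 with a library so far apart. Chance alone gives about 1 in 20 for each group checked, so 1 among 16 is not unusual. Without control 5 the log2 fold change of Frzb was 0.01 in place of 0.08. With only controls 2 to 4, those labelled CreWT, it was 0.02. Control 5 also had the highest Wif1 (54.5 CPM) and Dkk2 (46.1 CPM) of all 10.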

How the results depend on the processing

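Sfrp1, Sfrp2, Wif1 and Dkk2 stayed lower and past the threshold in each of the 23 alternatives, with log2 fold changes of -1.22 to -0.82, -1.97 to -1.77, -1.43 to -1.17 and -2.08 to -1.57. Notum ranged from 0.50 to 0.68 and lost its call in 2 alternatives, without litter A (0.50) and, an alternative chosen after seeing the data, without litter A with a replicate block by litter (0.51), so the count of members called higher was 0 in both. Leaving out 1 library at a time, the count of members called higher was 1 throughout and of those called lower 4 to 5, the fifth being Dkk3, whose value ranged from -0.46 to -0.23 over all alternatives. Dkk1 changed sign with a somite term (-0.036), without litter A (-0.12, and -0.12 with the block), without the libraries high in Xist, control 1 and knockout 3 (-0.012), and ranged from -0.052 to 0.10 when 1 library was left out. It was past the threshold in none. Over all genes, 4023 were called without litter A (2002 higher and 2021 lower), and with the block by litter added 1878 were higher and 1901 lower, against 3719 and 3526, with 6 libraries in place of 10. With a replicate block by litter 7314 genes passed and by number 6850, and among members these blocks changed no call except that of Dkk3 (-0.31 with the litter block). With the longest transcript as length, the control level of each of the 9 members was lower, for example 84.9 TPM for Sfrp2, in the same order. Sfrp5 gave no value in the fit except without the filter (1.11). Among the members, Sfrp5 was the one too low to test at this depth.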
